A study of Mus musculus with 15 samples.

Results

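ETS transcription factors share a DNA-binding domain that recognises a short GGA core, and several of them are the best known nuclear targets of the RAS-ERK kinase cascade that fibroblast growth factors (FGFs) switch on. Etv1, Etv4 and Etv5 form the PEA3 group of activators, whose own genes are transcribed when FGF receptors signal and are held down by the repressor capicua when they do not. Ets1 and Ets2 are activators that ERK phosphorylates, Elk1, Elk3 and Elk4 are ternary complex factors that work with serum response factor, and Erf and Etv6 are repressors, of which Erf leaves the nucleus when ERK phosphorylates it. These 10 genes were taken by symbol from the deposited expression table, with the transcript row of highest mean over the 15 libraries for each gene, out of 29072 gene symbols in all. The table gives transcript abundance as RPKM, reads per kilobase of transcript and per M reads of the library (M, mega). Levels are thus scaled for transcript length, but a comparison between genes also depends on the transcript row chosen for each. Transcript level is all that was measured here: phosphorylation, protein and DNA binding of these factors were not.

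The cells were preadipocytes from the stromal-vascular fraction of interscapular brown fat of 129SvEv mice, made immortal with SV40 large T antigen, and every group came from this kind of cell. The 5 groups of 3 libraries each were FGF8b with BAY-876, FGF9, FGF8b, FGF1 and an untreated control. Each FGF was given at 5.56 nM for 48 h with heparin at 1 µg/ml, and BAY-876, which blocks glucose uptake through GLUT1, at 2 µM. The series text gives heparin with every FGF, but the sample labels name it for FGF9 alone, and no heparin, vehicle or time is stated for the control. There was no group with BAY-876 alone. Nothing in the labels marks the libraries as separate cultures, so p-values cover the spread between these libraries, which may be technical.

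Of the 29072 symbols, 13869 reached 0.5 RPKM in at least 3 libraries and were tested, among them all 10 ETS genes. Each library held 27.0 to 42.6 M reads, worked out from the size of the steps between low values, and no library stood apart from its group (correlation within groups 0.9913 to 0.9967). Changes are differences of log2(RPKM + 0.5) with limma, which understates the change of low genes, and a gene counts as changed at an adjusted p (Benjamini-Hochberg over all genes tested) below 0.05. Intervals are 95%, from the standard error and 10 residual degrees of freedom. The 8 preadipocyte markers summed to 138 to 143 RPKM with FGF8b and BAY-876, 317 to 368 RPKM with FGF9, 326 to 373 RPKM with FGF8b and 786 to 815 RPKM with FGF1, against 1618 to 1789 RPKM in the control, and the part of this difference in the results below was not tested. Of these 8 genes, 7 fell with FGF8b and BAY-876 (35.9% of all genes tested), 6 with FGF9 (27%), 6 with FGF8b (26.6%) and 4 with FGF1 (15.1%). With FGF8b 1 rose (37.8% of all genes), and with FGF1 1 rose (19.3%). In the control much of the sum was Ly6a, at a mean of 1015 RPKM. Ly6a averaged 18.6 RPKM with FGF8b and BAY-876, 44.7 RPKM with FGF9, 52.7 RPKM with FGF8b and 245 RPKM with FGF1. In the first 3 of these groups Cd34 stood higher, at 53.4, 124 and 118 RPKM. The receptor gene Pdgfra averaged 298 RPKM with FGF1, against 276 RPKM in the control, and was not called there. Pdgfra averaged 21.5 RPKM with FGF8b and BAY-876, 30.4 RPKM with FGF9 and 39.9 RPKM with FGF8b. With FGF8b it fell by 2.79 on the log2 scale (SE 0.07, adjusted p = 4.9e-14, limma). Over all libraries the macrophage and leukocyte markers (7 of 8 in the table) summed to 5.32 to 9.28 RPKM and the 8 skeletal muscle markers to 4.13 to 8.45 RPKM. The leukocyte marker Ptprc was at 0 in every group but FGF8b, where 1 library held 0.013 RPKM, and the muscle determination gene Myod1 was at 0 in all 15 libraries. Other markers of these lists were present in every library. Itgam stood at 1.34 to 3.67 RPKM, Cd14 at 1.28 to 3.19 RPKM, Csf1r at 0.771 to 1.48 RPKM and the muscle marker Acta1 at 3.99 to 8.45 RPKM. In bulk RNA, fewer cells of a type and less RNA per cell cannot be told apart.

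The promoter sequences of Etv5 and Etv1 are shown because both are PEA3 genes with large differences between the groups. They are RefSeq windows on mouse build GRCm38.p6, 300 bases long, 250 before the start site and 50 after it. Of the 10 genes, 8 have such a window, with 12 windows in all. The window shown for each gene is the one with the most matches of the motifs marked below. The Etv5 window lies at chr16:22438319-22438618 on the minus strand, and the Etv1 window at chr12:38779832-38780131 on the plus strand. Capitals mark TGAATGG, on either strand (its reverse complement reads CCATTCA), and AGGAAGT, which holds the GGA core.
Etv5: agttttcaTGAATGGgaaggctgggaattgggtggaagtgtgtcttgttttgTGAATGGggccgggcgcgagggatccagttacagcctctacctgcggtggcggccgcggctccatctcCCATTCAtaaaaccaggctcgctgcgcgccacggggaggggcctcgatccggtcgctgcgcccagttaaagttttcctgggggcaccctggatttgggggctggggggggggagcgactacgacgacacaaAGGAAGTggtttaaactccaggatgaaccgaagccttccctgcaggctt
Etv1: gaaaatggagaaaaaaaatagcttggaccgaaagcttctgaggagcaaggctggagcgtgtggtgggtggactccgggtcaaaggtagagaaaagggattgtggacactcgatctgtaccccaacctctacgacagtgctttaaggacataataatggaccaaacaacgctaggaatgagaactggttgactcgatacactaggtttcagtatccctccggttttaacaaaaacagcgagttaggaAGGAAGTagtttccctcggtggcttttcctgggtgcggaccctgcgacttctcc

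TGAATGG is the first 7 letters of TGAATGGA, which like TGAATGAA is an octamer that capicua is known to bind. The Etv5 window held TGAATGG 3 times, with first bases at -242, -198 and -130 from the start site, and it was the 1 window of 32851 with 3 or more matches. At least 1 match was present in 3.59% of all windows. This motif was chosen after the Etv5 sequence had been read. The full octamers were searched on both strands and occurred in 1.30% (TGAATGAA) and 1.21% (TGAATGGA) of all windows. Neither occurred in a window of the ETS genes, and other octamers were not searched. AGGAAGT, found in 9.35% of all windows, stood at the start site in the windows shown for both genes, at 2 in Etv5 and at -4 in Etv1. It also stood in windows of Elk4, at -191, -70 and -63. These matches describe the letters in the windows. Which start site these cells used was not tested.

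Etv4 and Etv5 were the ETS genes furthest from the control under FGF8b and FGF9, at mean levels 9.79 to 22.5 times those of the control, and they were not higher under FGF1. Etv4 encodes the factor that gave the PEA3 group its name. It stood at 23.4, 27.1 and 28.1 RPKM with FGF8b and BAY-876, 25.0, 29.3 and 28.1 RPKM with FGF9, 23.2, 22.5 and 25.0 RPKM with FGF8b and 0.520, 0.472 and 0.616 RPKM with FGF1, against 1.70, 0.962 and 1.01 RPKM in the control. The libraries of the 3 groups given FGF8b or FGF9 overlapped each other, all lay far above the control, and all 3 FGF1 libraries lay below every control library. Etv4 rose by 3.83 with FGF8b on the log2 scale (SE 0.13, adjusted p = 7.4e-13, limma), a 19.3-fold ratio of means. The rise was 4.04 with FGF9 and 3.98 with FGF8b and BAY-876 (SE 0.13 each). With FGF1 it fell by 0.71 (SE 0.13, adjusted p = 0.000486, limma). The FGF1 values rest on 26 to 37 reads a library, worked out with an inferred transcript length. Limma-voom on the reads behind the values, which needs no pseudocount, gave a fall of 1.13 (SE 0.29, adjusted p = 0.00489).

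Etv5, a close relative of Etv4, stood at 28.8, 28.5 and 30.4 RPKM with FGF8b and BAY-876, 33.9, 36.7 and 35.2 RPKM with FGF9, 31.6, 29.6 and 33.5 RPKM with FGF8b and 1.30, 3.08 and 2.04 RPKM with FGF1, against 3.83, 2.63 and 3.20 RPKM in the control. It rose by 3.12 with FGF8b (SE 0.17, adjusted p = 3.0e-10, limma), 3.28 with FGF9 and 3.01 with FGF8b and BAY-876. Under FGF1 the second library lay above the lowest control library, so the groups overlapped. There the fall of 0.54 passed the test (SE 0.17, adjusted p = 0.0245, limma) but not in every setting. Without FGF1 library 1 the value was -0.29 and without control library 1 it was -0.42, with neither called, and leaving out FGF1 library 3 (-0.54) or control library 3 (-0.54) also ended the call. The chosen Etv5 row is a transcript of 433 bases with 18 to 660 reads. The RefSeq row of Etv5 gave -0.63 for FGF1 against the control (SE 0.07, adjusted p = 4.0e-06, limma).

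Etv1, the third PEA3 gene, was the ETS gene whose level differed most between FGF8b with BAY-876 and FGF8b alone. It stood at 2.53, 1.79 and 2.43 RPKM with FGF8b and BAY-876, 7.25, 9.26 and 8.90 RPKM with FGF9, 6.73, 8.62 and 8.32 RPKM with FGF8b and 0.910, 1.33 and 0.852 RPKM with FGF1, against 1.28, 1.18 and 1.05 RPKM in the control. The 3 libraries with BAY-876 lay below all 3 with FGF8b alone and above all 3 of the control. Etv1 rose by 2.32 with FGF8b (SE 0.14, adjusted p = 9.1e-10, limma) and by 2.42 with FGF9. BAY-876 on top of FGF8b lowered it by 1.61 (-1.61, SE 0.14, adjusted p = 1.4e-07, limma), and what was left was still 0.71 above the control (SE 0.14, adjusted p = 0.000318, limma). With FGF1 the difference from the control was -0.14 (interval -0.45 to 0.18, adjusted p = 0.506, limma).

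**Figure D1:**
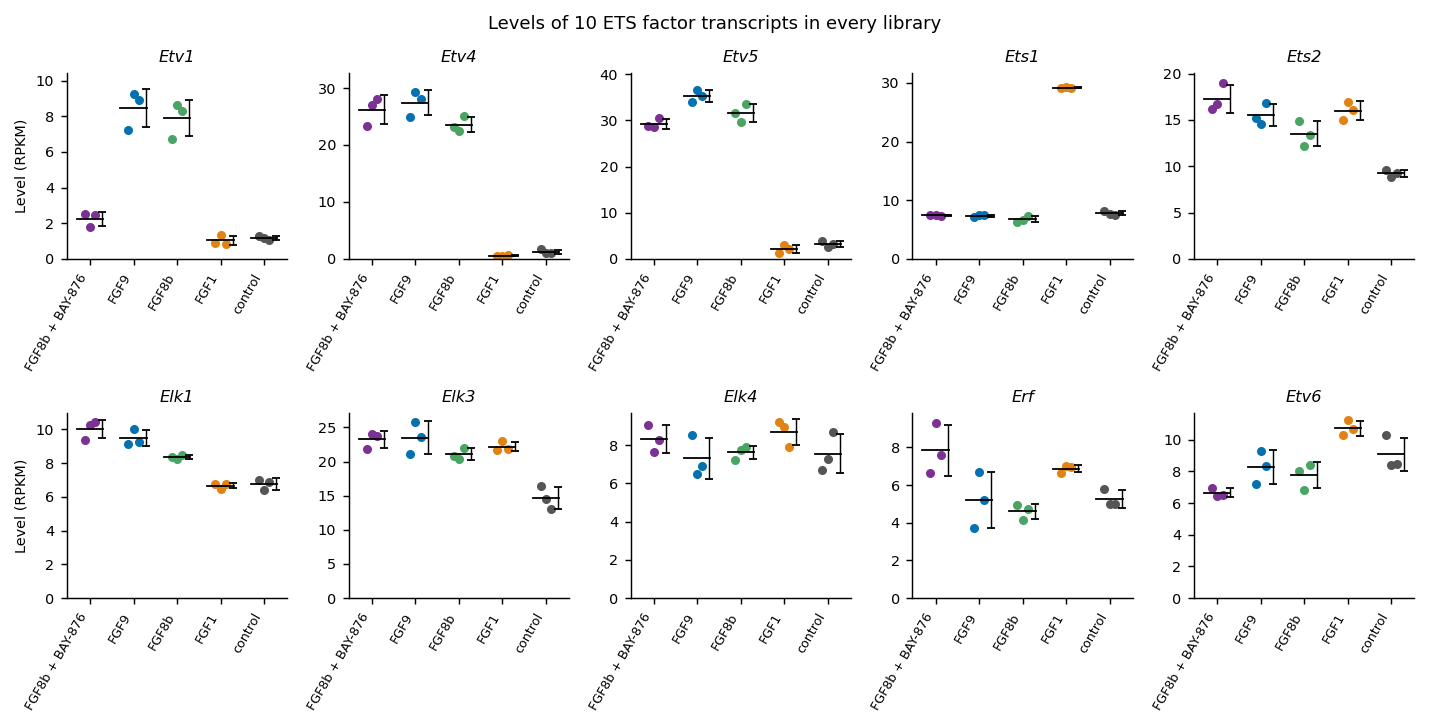
Level in RPKM (vertical axis, from 0) of each of the 10 ETS transcripts in every library (points), with the group mean (line) and SD (bar) for 3 libraries per group. Etv4 and Etv5 are high in the 3 groups given FGF8b or FGF9, Etv1 in FGF9 and FGF8b but not with BAY-876, and Ets1 in FGF1.

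The PEA3 genes parted from each other with BAY-876. Against FGF8b alone, Etv4 differed by 0.15 (interval -0.14 to 0.44, adjusted p = 0.343, limma) and Etv5 by -0.10 (interval -0.49 to 0.28, adjusted p = 0.626, limma), where Etv1 fell by 1.61. The ratio of Etv1 to Etv4 within a library was 0.108, 0.0659 and 0.0865 with FGF8b and BAY-876, against 0.290, 0.384 and 0.333 with FGF8b alone. The groups did not overlap, and the ratio was 3.92-fold lower with BAY-876 (log2 difference -1.97, SE 0.24). An exact two-sided permutation test gave p = 0.1, the smallest that 3 libraries against 3 allow. The sum of Etv1, Etv4 and Etv5 averaged 57.7 ± 3.15 RPKM with FGF8b and BAY-876, 71.2 ± 4.62 RPKM with FGF9, 63.0 ± 3.37 RPKM with FGF8b and 3.70 ± 1.09 RPKM with FGF1, against 5.61 ± 1.07 RPKM in the control (SD, n = 3 each). Etv1 supplied 3.91% of that sum with FGF8b and BAY-876, 11.9% with FGF9, 12.5% with FGF8b and 28.3% with FGF1, against 21.2% in the control. The sum, these shares and the ratios between genes rest on the chosen rows, of 1474 (Etv1), 2039 (Etv4) and 433 bases (Etv5). They were not worked out with other rows. Etv4 also stood higher relative to Etv5 with FGF8b (mean ratio 0.747) than in the control (0.374), a log2 difference of 1.01 (SE 0.14, exact permutation p = 0.1, the smallest possible).

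**Figure D2:**
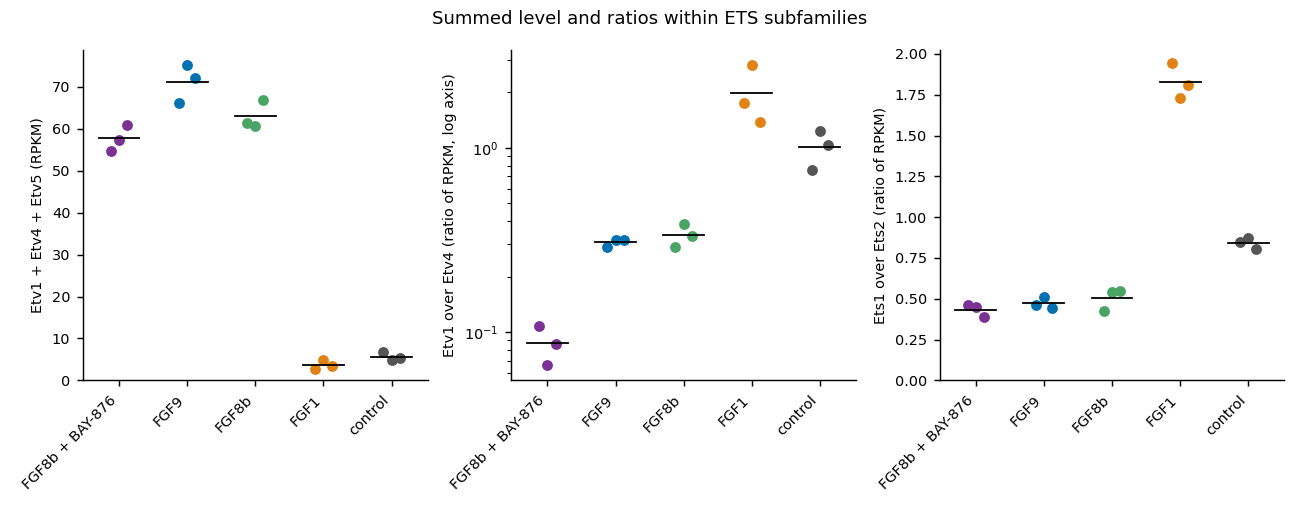
Points are libraries and lines group means, 3 libraries per group, of the summed PEA3 level (left, RPKM), the ratio of Etv1 to Etv4 (middle, log axis) and the ratio of Ets1 to Ets2 (right). The Etv1 to Etv4 ratio is lowest with FGF8b and BAY-876 (mean 0.0869) and the Ets1 to Ets2 ratio highest with FGF1 (mean 1.83).

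Ets1 had another pattern than the PEA3 genes: it was high with FGF1 and near the control elsewhere. Ets1 stood at 7.43, 7.54 and 7.33 RPKM with FGF8b and BAY-876, 7.09, 7.44 and 7.49 RPKM with FGF9, 6.34, 6.59 and 7.32 RPKM with FGF8b and 29.2, 29.3 and 29.1 RPKM with FGF1, against 8.12, 7.68 and 7.51 RPKM in the control. The FGF1 libraries hardly differed among themselves and their mean was 3.76-fold that of the control, a rise of 1.84 (SE 0.06, adjusted p = 1.7e-11, limma). Between FGF8b and FGF1, Ets1 was 2.04 lower with FGF8b (-2.04, SE 0.06, adjusted p = 3.1e-13, limma). Against the control, FGF8b gave a small fall of 0.19 (SE 0.06, adjusted p = 0.0136, limma), which was not called without FGF8b library 1 (-0.15) or without control library 1 (-0.16). Against FGF8b alone, Ets1 with BAY-876 differed by 0.13 (interval -0.01 to 0.27, adjusted p = 0.0819, limma), a difference called without FGF8b library 3 (0.19) and with trimmed-mean scaling (0.22). Trimmed-mean scaling also gave a called fall of Ets1 with FGF9 (-0.16, against -0.08 without it).

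Ets2, its close relative, rose in all 4 treated groups. It ranged over 16.1 to 19.0 RPKM with FGF8b and BAY-876, 14.5 to 16.8 RPKM with FGF9, 12.2 to 14.9 RPKM with FGF8b and 15.01 to 17.0 RPKM with FGF1, against 8.84 to 9.57 RPKM in the control. The rises over the control were 0.87, 0.72, 0.52 and 0.76 in the same order (SE 0.08 each, highest adjusted p = 5.3e-05, limma). In each case this was the largest rise among the 14 Ets2 transcript lines of mean 1 RPKM or more. All 14 lines rose, by 0.69 to 0.87, 0.52 to 0.72, 0.26 to 0.52 and 0.36 to 0.76 in that order. Ets2 was 0.35 higher with BAY-876 than with FGF8b alone (SE 0.08, adjusted p = 0.00239, limma). The fall of 0.24 in FGF8b against FGF1 (adjusted p = 0.0218, limma) was not called without FGF8b library 2 (-0.17), FGF8b library 3 (-0.24), FGF1 library 2 (-0.20) or FGF1 library 3 (-0.24). The ratio of Ets1 to Ets2 averaged 1.83 with FGF1, against 0.842 in the control, a log2 difference of 1.12 (SE 0.06, exact permutation p = 0.1, the smallest possible). In these libraries the endothelial genes Pecam1 and Cdh5, whose cell type is known for high Ets1, were at most 0.129 RPKM (Pecam1) and 0.0760 RPKM (Cdh5). The 8 endothelial markers summed to 1.68 to 1.77 RPKM with FGF1, against 7.66 to 8.98 RPKM in the control, where the receptor gene Kdr made up 5.61 to 6.996 RPKM. With FGF1 Kdr stood at 0.624 to 0.777 RPKM and Tek at 0.882 to 1.00 RPKM, against 1.80 to 2.20 RPKM for Tek in the control. Vwf stood at 1.05 to 1.19 RPKM with FGF8b and BAY-876. The part of endothelial cells in the Ets1 level was not tested.

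Of the ternary complex factors, Elk3 rose in all 4 treated groups, Elk1 in 3 of them, and Elk4 was called in none. Elk3, which represses serum response factor targets until ERK phosphorylates it, ranged over 21.9 to 24.0 RPKM with FGF8b and BAY-876, 21.1 to 25.8 RPKM with FGF9, 20.4 to 22.0 RPKM with FGF8b and 21.7 to 23.0 RPKM with FGF1, against 13.0 to 16.4 RPKM in the control. Every treated library lay above every control library, and the rises were 0.65, 0.66, 0.52 and 0.59 in that order (SE 0.08 each, highest adjusted p = 5.0e-05, limma). Elk1, the founding ternary complex factor, stood at 9.40 to 10.4 RPKM with FGF8b and BAY-876, 9.14 to 10.02 RPKM with FGF9, 8.23 to 8.48 RPKM with FGF8b and 6.47 to 6.79 RPKM with FGF1, against 6.38 to 7.01 RPKM in the control. It rose by 0.53, 0.46 and 0.29 in the first 3 groups (SE 0.07 each, highest adjusted p = 0.00117, limma). With FGF1 it differed by -0.02 (interval -0.16 to 0.13), and its libraries lay within the span of the control. BAY-876 on top of FGF8b went with a further rise of Elk1 of 0.25 (SE 0.07, adjusted p = 0.00449, limma). Elk3 differed there by 0.14 (adjusted p = 0.174, limma), and by 0.23, then called, under trimmed-mean scaling.

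Elk4, the ternary complex factor also called SAP-1, ranged over 7.62 to 9.06 RPKM with FGF8b and BAY-876, 6.51 to 8.51 RPKM with FGF9, 7.24 to 7.89 RPKM with FGF8b and 7.91 to 9.24 RPKM with FGF1, against 6.70 to 8.68 RPKM in the control. Every treated group overlapped the control and no comparison was called, with differences from the control between -0.05 (FGF9) and 0.20 (FGF1). Its sign against the control was unstable. With FGF8b it turned from 0.02 to -0.05 under trimmed-mean scaling, and to -0.06 without control library 1. Without control library 2 (-0.0004) or FGF8b library 3 (-0.0036) it was near 0. With FGF9 it turned to 0.03 without FGF9 library 2 and 0.05 without control library 3. The RefSeq row of Elk4 was called higher with FGF9 (0.18, adjusted p = 0.0357, limma), with FGF1 (0.22, adjusted p = 0.02, limma) and with FGF8b and BAY-876 (0.32, adjusted p = 0.000635, limma), and with BAY-876 over FGF8b alone (0.19), so the choice of transcript row decides this gene's calls.

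Of the repressors, Erf rose and Etv6 fell with FGF8b and BAY-876 relative to the control. Erf stood at 6.66, 9.30 and 7.59 RPKM with FGF8b and BAY-876, 3.72, 6.70 and 5.21 RPKM with FGF9, 4.95, 4.15 and 4.71 RPKM with FGF8b and 6.64, 7.01 and 6.97 RPKM with FGF1, against 5.79, 4.998 and 5.003 RPKM in the control. The BAY-876 libraries lay above all FGF8b and control libraries. Erf rose by 0.70 over FGF8b alone (SE 0.15, adjusted p = 0.00110, limma) and by 0.53 over the control (adjusted p = 0.00609, limma). With FGF1 all 3 libraries lay above the control, yet the difference of 0.36 (interval 0.02 to 0.70) did not pass the test over 5 groups (adjusted p = 0.0856, limma) and passed it when those 2 groups alone were fitted. FGF8b was 0.53 lower than FGF1 (-0.53, SE 0.15, adjusted p = 0.00705, limma).

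Etv6, a repressor best known from leukaemia fusions, stood at 6.97, 6.45 and 6.51 RPKM with FGF8b and BAY-876, 7.20, 9.30 and 8.35 RPKM with FGF9, 8.03, 6.83 and 8.38 RPKM with FGF8b and 10.3, 11.2 and 10.7 RPKM with FGF1, against 10.3, 8.43 and 8.49 RPKM in the control. With FGF8b and BAY-876 it fell by 0.42 relative to the control (SE 0.10, adjusted p = 0.00154, limma), and with FGF8b it was 0.45 lower than with FGF1 (-0.45, SE 0.10, adjusted p = 0.00116, limma). Of its other differences, 3 missed the threshold and were called in some settings. Against the control these were 0.24 with FGF1 (adjusted p = 0.0847, limma; called at 0.32 without control library 1) and -0.21 with FGF8b (adjusted p = 0.0736, limma; called at -0.27 without FGF8b library 3 and at -0.29 under trimmed-mean scaling). Between FGF8b with BAY-876 and FGF8b alone it differed by -0.20 (adjusted p = 0.0964, limma; called at -0.29 without FGF8b library 2). The RefSeq row of Etv6 was called in all 3 of these comparisons, at 0.28, -0.16 and -0.21.

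**Figure D3:**
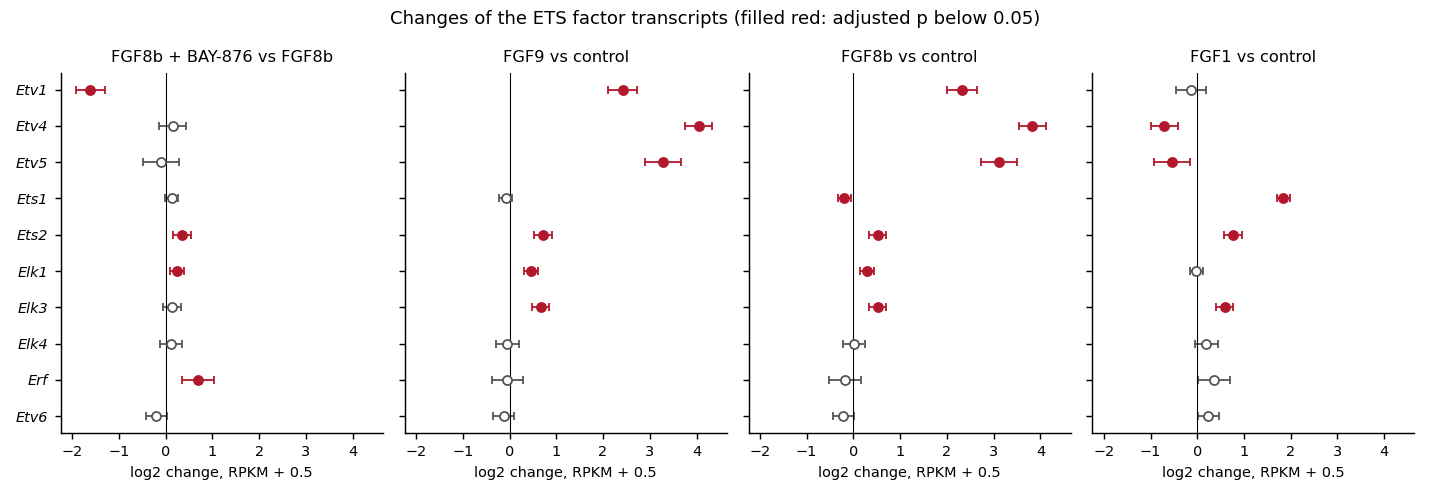
Change of each ETS transcript as a log2 difference of RPKM + 0.5 (horizontal axis) with its 95% interval, in 4 comparisons of 3 libraries against 3. Filled red points passed the test; Etv4 and Etv5 stand near 4 and 3 with FGF9 and FGF8b, Ets1 near 1.84 with FGF1, and Etv1 at -1.61 with BAY-876.

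Counted together, 7 of the 10 ETS genes rose and 1 fell with FGF8b and BAY-876 relative to the control, where 36.8% of all genes tested rose and 35.9% fell. With FGF9, 6 rose (38.7% of all genes) and none fell (27%). With FGF8b, 6 rose (37.8%) and 1 fell (26.6%). With FGF1, 3 rose (19.3%) and 2 fell (15.1%). Between FGF8b with BAY-876 and FGF8b alone, 3 were higher (22.5%) and 1 lower (34.8%), and between FGF8b and FGF1, 4 were higher (33.3%) and 4 lower (26.6%). Rises outnumbered falls over all genes too in each comparison with the control. These splits depend on the scaling. Over all genes, trimmed-mean scaling gave 4520 higher and 4332 lower with FGF9 (5369 and 3739 without it), 4440 higher and 4268 lower with FGF8b (5238 and 3693), and 2379 higher and 2304 lower with FGF1 (2677 and 2095). Between FGF8b with BAY-876 and FGF8b alone it gave 4010 higher and 3914 lower, against 3117 and 4824 without it. Of the ETS genes, it called 6 higher and 1 lower with FGF9, 6 higher and 2 lower with FGF8b, and 5 higher and 1 lower with BAY-876 against FGF8b. RefSeq rows gave 8 higher and 1 lower with FGF8b and BAY-876, 7 higher and none lower with FGF9, and 6 higher and 2 lower with FGF8b. They gave 5 higher and 2 lower with FGF1, and 4 higher and 2 lower with BAY-876 against FGF8b. Over all genes, RefSeq rows gave 5033 higher and 4876 lower with FGF8b and BAY-876, and 5419 and 3719 with FGF9. The counts were 5238 and 3735 with FGF8b, 2832 and 2271 with FGF1, and 3243 and 4934 with BAY-876 against FGF8b. These counts are out of the genes that passed the filter with RefSeq rows. The median change of the 10 genes, beside that of all genes tested, was 0.59 beside 0.01 with FGF8b and BAY-876, 0.56 beside 0.09 with FGF9, 0.40 beside 0.08 with FGF8b and 0.22 beside 0.02 with FGF1. The comparisons with the control share its 3 libraries.

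FGF9 and FGF8b, which belong to different FGF subfamilies, gave levels of these genes that differed little in size. None of the 10 ETS genes was called between them (limma, Benjamini-Hochberg), where 0.296% of all genes were. At an unadjusted p below 0.05 there were 2 of the 10 with limma, beside 977 of all 13869 genes tested. With limma-voom there were 3 of the 10, with the number over all genes not counted. Limma-voom called none of the 10 after adjustment. The differences ran from -0.06 (Elk4) to 0.22 (Etv4, interval -0.07 to 0.50), and the widest interval reached 0.55 (Etv5). Their median was 0.14, beside 0.01 over all genes tested. For Etv5 and Elk1 every FGF9 library lay above every FGF8b library. Over all genes 41 were called, and 6 to 35 when 1 library was left out, so few calls of any kind were to be had in this comparison.

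The table holds several transcript lines per gene, which share reads and are no replicates, and the directions above mostly did not hang on the line chosen. All 16 Etv4 lines of mean 1 RPKM or more were higher with FGF8b than in the control, by 2.93 to 3.83 on the log2 scale, as were all 9 Etv5 lines (2.31 to 3.12) and all 12 Etv1 lines (2.02 to 2.42). With BAY-876 on top of FGF8b, all 12 Etv1 lines were lower, from -1.62 to -1.41, all 16 Etv4 lines were higher by 0.14 to 0.23, and all 9 Etv5 lines lay between -0.12 and -0.07. With FGF1 all 6 Ets1 lines were higher than in the control, by 1.58 to 2.01, and all 16 Etv4 lines (-0.73 to -0.34) and all 9 Etv5 lines (-0.63 to -0.26) were lower. Against the control, lines differed in sign for Elk4 with FGF9 (7 higher, 1 lower) and for Ets1 with FGF9 (1 higher, 5 lower) and with FGF8b and BAY-876 (2 higher, 4 lower).

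**Figure D4:**
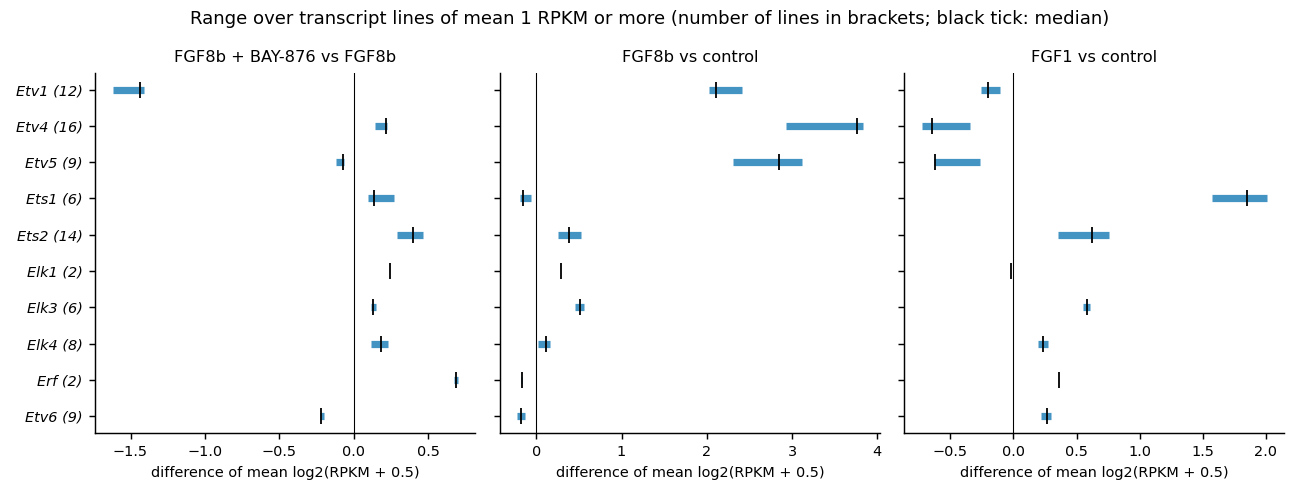
Range of the difference in mean log2(RPKM + 0.5) over the transcript lines of each gene (bars; tick, median; number of lines in brackets) in 3 comparisons, each panel with its own horizontal scale. For Etv4, Etv5, Etv1 and Ets1 the whole bar lies on the same side of 0 as the value given for the gene in that panel.

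The genes whose pattern over the 15 libraries was most like Etv4, by the root mean square difference of log2(RPKM + 0.5) after centring each gene, out of 11330 genes compared, were Hmga2 (0.33), Etv5 (0.50), Trib3 (0.51), Dusp6 (0.52) and Atf3 (0.56). Hmga2, a chromatin architecture protein, averaged 162 RPKM with FGF8b and BAY-876, 133 RPKM with FGF9, 110 RPKM with FGF8b and 7.81 RPKM with FGF1, against 8.65 RPKM in the control. Most like Etv5 were Dusp6 (0.31), Prkg2 (0.39), Gadd45a (0.39), Itga6 (0.39) and Trib3 (0.40), with Etv4 in place 14. For Etv1, a list added after its values were seen, they were Gap43 (0.23), Trp53i11 (0.23), Clec1a (0.27), Fetub (0.27) and Fgf21 (0.28). Gap43, a growth cone protein, averaged 2.26 RPKM with FGF8b and BAY-876, 10.2 RPKM with FGF9, 6.90 RPKM with FGF8b and 0.974 RPKM with FGF1, against 0.964 RPKM in the control.

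Among the other ETS family genes, 6 of 16 passed the level filter. With FGF8b 2 of them rose, 2 fell and 2 were not called, where 37.8% of all genes rose and 26.6% fell. Elf1, an activator known from blood and endothelium, fell by 1.10 with FGF8b (SE 0.09, adjusted p = 2.0e-08, limma) and by 0.40 with FGF1. Elf4 fell by 0.81 and the repressor Etv3 rose by 0.33 with FGF8b. Elf2 rose by 0.15 (adjusted p = 0.0174, limma), a call lost without FGF8b library 2 (0.12), without control library 2 (0.13) and under trimmed-mean scaling (0.08). Gabpa, the DNA-binding subunit of GABP, was the most abundant of them at 31.4 to 42.1 RPKM over all libraries and differed by 0.10 with FGF8b (adjusted p = 0.334, limma), where its RefSeq row was called at 0.18. Fli1, a relative of Erg, had 1.41, 1.25 and 1.42 RPKM with FGF8b and BAY-876, 0.734, 0.536 and 0.677 RPKM with FGF9, 0.546, 0.493 and 0.539 RPKM with FGF8b and 1.28, 1.39 and 1.47 RPKM with FGF1, against 0.655, 0.149 and 0.359 RPKM in the control. It rose by 1.12 with FGF1 (SE 0.15, adjusted p = 2.9e-05, limma) and was 0.86 higher with BAY-876 than with FGF8b alone. With FGF8b it differed by 0.25 from the control (adjusted p = 0.164, limma), and by 0.46, then called, without control library 1.

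Genes known as outputs of ERK signalling rose with the PEA3 genes under FGF8b and FGF9 and mostly not under FGF1. Of 17 tested, 14 rose and 3 fell with FGF8b and BAY-876 (36.8% and 35.9% of all genes), and 13 rose and 1 fell with FGF9 (38.7% and 27%). With FGF8b 13 rose and 1 fell (37.8% and 26.6%), and with FGF1 3 rose and 7 fell (19.3% and 15.1%). Their median change with FGF8b was 1.17, against 0.08 over all genes. The ERK phosphatase Dusp6 rose by 3.37 with FGF8b, the phosphatase Dusp4 by 3.09, the RAS pathway inhibitor Spry4 by 2.97 and the cyclin gene Ccnd1 by 2.19 (SE 0.08 to 0.09, highest adjusted p = 2.1e-12, limma). With BAY-876 against FGF8b alone, 10 of the 17 rose and 6 fell (22.5% and 34.8% of all genes). Dusp4 (1.99) and Ccnd1 (1.20) rose there, and Dusp6 (-0.55) and Spry4 (-0.51) fell. With FGF1, Ccnd1 fell by 1.43 and Dusp6 by 0.36 relative to the control. Between FGF9 and FGF8b 2 of the 17 were called higher, where no ETS gene was called and 0.296% of all genes were.

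In the cascade itself, 11 of 23 genes rose and 4 fell with FGF8b, where 37.8% of all genes rose and 26.6% fell, and 7 rose and 1 fell with FGF1, where 19.3% and 15.1% of all genes did. The largest rises with FGF8b were those of the RAS GTPase activator gene Rasa1 (1.81) and the ERK-activated kinase gene Rps6ka2 (1.63), and the largest fall was that of the adaptor gene Gab1 (-0.82). With BAY-876 on top of FGF8b, 4 of the 23 rose and 10 fell, beside 22.5% and 34.8% of all genes. These counts lie near the shares over all genes and are no result about the cascade. Of 9 genes that regulate PEA3 factors through capicua or the ubiquitin ligase COP1, 4 rose and 4 fell with FGF8b and BAY-876, 4 rose and 5 fell with FGF9, 4 rose and 4 fell with FGF8b, and 5 rose and none fell with FGF1, beside the same shares over all genes as above. With FGF8b the pseudokinase gene Trib2 rose by 1.73, while Trib1 (-1.08), the capicua partner gene Atxn1 (-1.07) and the capicua gene Cic (-0.69, adjusted p = 0.000377, limma) fell. Cic averaged 23.4 ± 3.56 RPKM with FGF8b and BAY-876, 10.1 ± 1.76 RPKM with FGF9, 9.14 ± 1.14 RPKM with FGF8b and 19.5 ± 1.62 RPKM with FGF1, against 15.02 ± 2.11 RPKM in the control (SD, n = 3 each). Its libraries with BAY-876 lay above all those with FGF8b alone, a rise of 1.31 (SE 0.14, adjusted p = 8.7e-07, limma), and there Trib1 rose by 0.75 and Trib2 fell by 0.93. Of 12 targets of serum response factor and its ternary complex partners, 6 rose and 5 fell with FGF8b and BAY-876 (36.8% and 35.9% of all genes), 6 rose and 2 fell with FGF9 (38.7% and 27%), 2 rose and 4 fell with FGF8b (37.8% and 26.6%), and 1 rose and 2 fell with FGF1 (19.3% and 15.1%). With FGF8b the rises were those of Ier2 (0.99) and Nr4a1 (0.72), and Btg2 fell by 1.13 and Zfp36 by 0.70.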

How the data were processed

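Total RNA of 15 libraries (TruSeq RNA Sample Prep kit v2, per the labels' protocols) was sequenced, and the submitters' processing notes name CASAVA and bcl2fastq; for the aligner, genome build and annotation, none is given in the sources used here. The authors deposited 1 table of 168326 transcript lines with decimal commas and 15 value columns. Its unit is not named, but 94.3% to 95.2% of low values of Ensembl transcripts, times length, fell on whole multiples of a step of each library's own (tolerance 0.05), so the deposited values were read as RPKM. That step and a transcript length gave the reads behind each value. The length was searched for so that all values of a gene were whole within 0.02 read. Such a length was found for 100% of the 13869 tested genes, which by itself is no check of it. Of 3476 Ensembl rows that could be compared, the search gave the annotated length for 90.7%. The rows chosen for Etv4, Ets1, Etv6, Elk1, Elk4 and Erf had no annotated length, so their reads rest on the search. Whether the counting used strand is not stated, and reads shared between transcripts may be split.

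A branch for counts was planned and not run, because the table held RPKM. The 145154 lines with a symbol were reduced to the highest-mean line per symbol. Values were log2(RPKM + 0.5) without further scaling, for genes of at least 0.5 RPKM in at least 3 libraries, and were fitted with limma 3.58.1 (R 4.3.3; empirical Bayes with trend) over all 15 libraries and 5 groups, in 7 comparisons, with Benjamini-Hochberg adjustment over all 13869 genes in each. The fit was tested on simulated data. Ratios within a library were compared on the log2 scale by exact permutation tests (scipy 1.17.1). The members and gene lists were chosen with earlier results of these data known, so list counts are descriptions. All 10 members are named, as are the tested genes of the other ETS family, and of the remaining lists the 4 genes of largest change among those called with FGF8b, of which 1 is not reported here; likeness lists hold the 5 closest genes of mean 1 RPKM or more in a group, without predicted gene models. Alternatives were pseudocounts of 0.1 and 1, no filter or 1 RPKM, trimmed-mean scaling, RefSeq rows, 2 groups only, a replicate block, limma-voom on recovered reads, and leaving out each library.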

Additional observations from a re-analysis of the deposited data

How the results depend on the processing

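Over the 15 alternatives each of the 70 member values had, 1007 of 1050 kept their sign and their side of the threshold, 13 lost a call, 15 gained a call with the same sign and 15 changed sign, of which 1 (Elk4 with FGF9, RefSeq row) also gained a call. The calls of Etv1, Etv4, Elk1, Elk3 and Erf, and those of Ets1 with FGF1, were kept under every alternative run. Lost calls were those of Etv5 with FGF1 (also without the filter and with 2 groups only, -0.54 each), Ets1 with FGF8b (also with 2 groups only, -0.19) and Ets2 between FGF8b and FGF1. All values that changed sign were uncalled in the fit over 15 libraries. Elk4 with FGF8b was -0.0515 under trimmed-mean scaling, and the RefSeq row gave 0.177 for Elk4 with FGF9 and 0.0401 for Elk4 between FGF9 and FGF8b; for the last 2 the cause was not tested. Leaving out 1 library moved Elk1 with FGF1 over -0.056 to 0.0068, Elk4 with FGF8b over -0.0583 to 0.117, Elk4 with FGF9 over -0.153 to 0.0517 and Erf with FGF9 over -0.228 to 0.157. Between FGF9 and FGF8b it moved Etv1 over -0.0077 to 0.198, Elk4 over -0.172 to 0.0091 and Erf over -0.053 to 0.333. The 41 genes called between FGF9 and FGF8b became 0 with 2 groups only, where fewer libraries estimate the spread, 70 with RefSeq rows, 27 with a pseudocount of 0.1, 62 with limma-voom and 6 to 35 without 1 library; apart from the fewer libraries, the cause was not tested. Same-numbered libraries were not paired by the labels, and their deviations correlated above 0.1 in 11 of 30 pairs (-0.443 to 0.534). With a replicate block, 7 members were called with FGF8b, 5 with FGF1 and 4 with BAY-876 against FGF8b, as without it, and all 70 member values kept their call; 9016 genes were called with FGF8b under the block and 8931 without. Depth limits Etv4, Etv1 and Etv5 in the FGF1 libraries, where 18 to 53 reads stand behind a value, and such reads are not independent molecules.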
